A study of Mus musculus with 18 samples.

Results

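The 35 genes described here encode the synaptic vesicle and release machinery of neurons, and they were followed in the RNA of hippocampal astrocytes and of the whole hippocampus after kainic acid (KA). The members were a fixed list of 35 gene symbols, and all 35 of them were found among the 55291 symbols of the count and FPKM tables. FPKM is the count of a gene scaled by the reads of the library and by the length of the gene, and it is used here wherever levels of different genes are compared. The list is defined by gene symbols, but it was chosen with earlier results of these data known. The genes were read for how much neuronal transcript the astrocyte pull-down contained, with and without KA.

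Astrocyte RNA was isolated from male C57BL/6J mice of wild-type genotype that were 6 weeks old when the virus was injected. An adeno-associated virus (AAV) in the right CA3 drove the ribosomal protein Rpl10a fused to EGFP from the GfaABC1D promoter, a short promoter derived from the astrocyte gene Gfap, so expression depended on that promoter and on the infected region. IP samples are RNA bound to EGFP-Rpl10a ribosomes that an anti-GFP antibody pulled down, and input samples are RNA of the same homogenate before the pull-down, that is, of whole right hippocampus. Each sample pooled 3 to 4 mice. In the KA group, KA, a glutamate receptor agonist that causes seizures and loss of hippocampal neurons, was injected into the right dentate gyrus 2 weeks after the AAV, and RNA was taken 14 days later. The PBS group received phosphate-buffered saline in place of KA, and the day of its RNA collection is not stated in the sources used here. The AAV control group received only the AAV, and its RNA was taken 2 weeks afterwards. The KA and AAV control groups thus also differed in the time since the AAV, in age at collection and in the later injection. None of these can be told apart from KA. Each of the 3 groups had 3 samples, numbered #1 to #3, with 1 IP and 1 input library each. The KA and AAV control samples shared 2 sequencing runs (#1 and #2 in run 1, #3 in run 2), whereas all PBS samples were in run 3, so PBS and run cannot be told apart.

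Neurons release transmitter from vesicles that dock at the active zone, a scaffold of large proteins such as Bassoon, Piccolo, RIM and Munc13. Synaptotagmins sense calcium, the SNARE proteins of vesicle and membrane zip together, complexins hold the fusion reaction ready, and the ATPase Nsf with its SNAP adaptors takes used SNARE complexes apart. Afterwards dynamin, amphiphysin and endophilin retrieve the membrane. These genes are widely used as neuronal markers, although several have relatives that other cells also express.

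The libraries held between 7991681 and 16032180 counts each, and the members ranged from 0 to 44677 counts per library. The 11 astrocyte markers (among them Gfap, Aqp4, Aldh1l1 and Slc1a2) were called higher in IP than in input in all 3 groups, 11 of 11 in each. Oligodendrocyte markers were also enriched with KA, where 6 of 6 were called higher in IP than in input (8.11% of genes, median log2 fold change 1.41). In each of the other groups 0 of 6 were. None of the neuron, microglia, endothelial or choroid plexus markers tested was called higher in KA IP than in KA input. Of these, 5 of 5 microglia and 2 of 2 endothelial markers were called lower (4.51% of genes). The input samples carry the same cell type label, but whole tissue was sequenced there. As a sum the astrocyte markers were enriched 10.1-fold ± 0.70 (SD, n = 3 pairs) for AAV control, 9.83-fold, 10.7-fold and 6.49-fold for PBS #1 to #3, and 4.26-fold ± 0.42 (n = 3) for KA, so this ratio was lowest with KA. On average the markers took 3.23% of IP counts with KA, 4.14% for AAV control and 4.69% for PBS. In input they took 0.761% with KA, 0.411% for AAV control and 0.522% for PBS. The KA ratio thus combines a lower mean share in IP with a higher share in input. Single markers moved in both directions in KA against AAV control IP, with log2 fold changes from -1.51 to 2.49. There 1 of 11 was called higher (6.39% of genes) and 3 lower (5.22%). In input 4 of 11 were called higher with KA than for AAV control (2.52% of genes) and 0 lower (0.185%). Some libraries stood apart. PBS IP #2 had the lowest FPKM of the PBS IP samples for 30 of the 35 members, and AAV control input #3 had the highest FPKM of its group for 8 of the 10 members that were called in the main comparison of IP samples. Each sample was a pool of mice, and p-values measure the spread between such pools, 3 in each group. In the KA and AAV control groups #3 was in another sequencing run than #1 and #2, so the spread there holds pools and runs together.

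The upstream sequence of the 3 members with the largest rise in KA IP, Rab3a, Rph3a and Slc17a7, and of the active zone genes Bsn and Pclo, which were not called, is shown so that promoters of called members can be read beside those of long members that were not called. RefSeq promoters on GRCm38.p6 were given for 29 of the 35 members. On that build GENCODE places Rab3a at chr8:70754679-70758677, Rph3a at chr5:120940499-121010092, Slc17a7 at chr7:45163949-45176142, Bsn at chr9:108096022-108190384 and Pclo at chr5:14514918-14863459. The 250 bases before the annotated start lie at chr8:70754453-70754702 (plus strand) for Rab3a, at chr5:121010093-121010342 (minus strand) for Rph3a, at chr7:45163671-45163920 (plus strand) for Slc17a7, at chr9:108190384-108190633 (minus strand) for Bsn and at chr5:14514668-14514917 (plus strand) for Pclo. Capitals mark GGGCGG, the GC box bound by Sp1-type factors, and TGACGT, the core of the cAMP response element, on either strand.
Rab3a: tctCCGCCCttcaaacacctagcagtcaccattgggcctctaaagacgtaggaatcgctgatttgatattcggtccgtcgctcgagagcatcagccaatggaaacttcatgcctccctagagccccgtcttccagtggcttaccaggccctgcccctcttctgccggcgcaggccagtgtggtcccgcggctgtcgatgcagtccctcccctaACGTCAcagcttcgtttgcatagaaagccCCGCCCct
Rph3a: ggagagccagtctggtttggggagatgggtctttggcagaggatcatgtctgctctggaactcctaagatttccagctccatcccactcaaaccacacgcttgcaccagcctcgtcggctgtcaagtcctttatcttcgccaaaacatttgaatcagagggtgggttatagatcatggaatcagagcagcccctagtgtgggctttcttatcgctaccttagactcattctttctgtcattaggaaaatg
Slc17a7: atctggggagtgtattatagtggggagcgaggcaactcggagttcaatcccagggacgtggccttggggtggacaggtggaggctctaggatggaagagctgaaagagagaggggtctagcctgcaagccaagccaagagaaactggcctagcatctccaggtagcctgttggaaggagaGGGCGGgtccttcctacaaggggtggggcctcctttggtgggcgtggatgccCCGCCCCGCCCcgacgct
Bsn: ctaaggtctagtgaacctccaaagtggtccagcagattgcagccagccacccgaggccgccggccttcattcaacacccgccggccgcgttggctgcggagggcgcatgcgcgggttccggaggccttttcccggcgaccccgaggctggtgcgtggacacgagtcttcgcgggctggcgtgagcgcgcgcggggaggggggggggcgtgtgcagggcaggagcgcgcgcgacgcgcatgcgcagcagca
Pclo: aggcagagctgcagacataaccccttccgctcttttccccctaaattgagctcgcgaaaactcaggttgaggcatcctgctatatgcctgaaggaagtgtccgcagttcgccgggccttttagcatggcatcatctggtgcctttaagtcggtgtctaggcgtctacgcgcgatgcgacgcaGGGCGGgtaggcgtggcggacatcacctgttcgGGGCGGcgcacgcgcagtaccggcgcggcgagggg
The GC box was found 2 times in Rab3a, 0 times in Rph3a and 3 times in Slc17a7, where 2 of the copies on the minus strand overlap by 1 base. It was found 0 times in Bsn and 2 times in Pclo. Several members have more than 1 annotated start, so the 29 members have 39 windows of this length. At least 1 GC box lay in 22 of these 39 windows (56.4%) and in 32.7% of all 32851 windows of the table. TGACGT lay in 4 of the 39 (10.3%), those of Rab3a, Sh3gl2, Sncb and Syn1, and in 6.47% of all windows. Rab3a had 2 annotated starts and Rph3a had 3, of which the one nearest to the 5′ end of the GENCODE gene is shown.

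**Figure D1:**
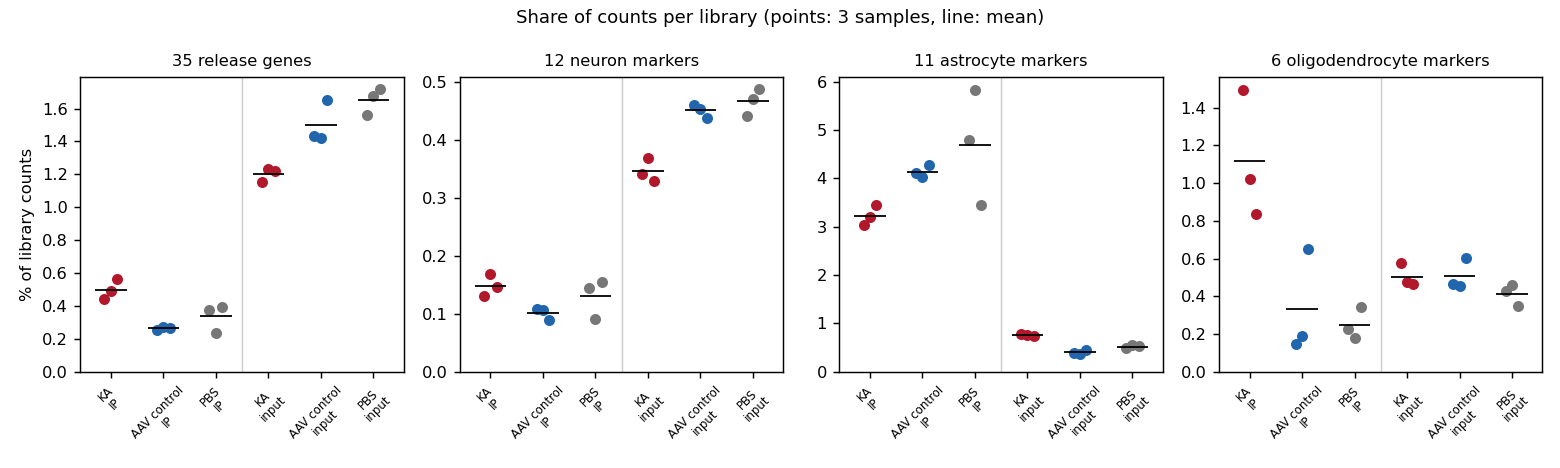
Share of library counts, in percent on the y axis, held by the 35 release genes and by 3 marker lists. Points are the 3 samples of each group and lines their means. All 3 KA IP samples (0.444% to 0.562%) lie above the AAV control IP samples (0.256% to 0.271%), whereas for the release genes the KA input samples lie lowest among the inputs.

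The release genes together took 0.444%, 0.490% and 0.562% of the counts in KA IP #1 to #3. The 3 AAV control IP samples gave 0.256%, 0.271% and 0.269%, and the PBS IP samples 0.377%, 0.237% and 0.395%. Every KA IP sample was thus above every sample of both comparison groups. The order was turned around in input, where the members took 1.15%, 1.23% and 1.22% of KA counts, 1.43%, 1.42% and 1.65% of AAV control counts, and 1.56%, 1.67% and 1.72% of PBS counts. In such bulk samples, fewer neurons and less of these RNAs per neuron cannot be told apart. Divided within each homogenate, the share in IP was 0.384, 0.398 and 0.462 of that in input in the KA group. The AAV control ratios were 0.179, 0.191 and 0.163, and the PBS ratios 0.241, 0.142 and 0.230. On average the pull-down held 0.414 ± 0.041 (SD, n = 3 pairs) of the input share of release transcripts with KA, 0.178 ± 0.014 for AAV control and 0.204 ± 0.055 for PBS.

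A separate list of 12 neuron markers (among them Rbfox3, Map2 and Stmn2) had IP to input share ratios of 0.429 ± 0.039 with KA, 0.225 ± 0.017 for AAV control and 0.280 ± 0.076 for PBS. Of the neuron markers, 3 of the 11 tested were called higher in KA than in AAV control IP (6.39% of genes) and 0 lower (5.22%). Against PBS IP, 4 of 11 were called higher (8.08% of genes) and 0 lower (9.34%). There 6 were below 0, and the median log2 fold change was -0.09. The neuron markers took 0.131% to 0.169% of KA IP counts and 0.0904% to 0.155% of PBS IP counts, which overlapped. Their mean share of input was 0.346% with KA, 0.451% for AAV control and 0.467% for PBS. The 6 dentate granule cell markers had a ratio of 0.840 ± 0.211 in the KA group against 0.323 ± 0.038 in the AAV control group, and the 7 CA pyramidal cell markers 0.366 ± 0.053 against 0.198 ± 0.010. Of the 4 dentate granule cell markers tested in IP, 3 were called higher with KA than for AAV control and 0 lower. Against PBS IP, 2 of 4 were called higher and 0 lower. Of the 5 CA pyramidal markers tested between KA and AAV control IP, however, 1 was called higher and 2 lower, with a median log2 fold change of -0.99. The 7 interneuron markers had 0.254, 0.351 and 1.06 in KA #1 to #3 against 0.169 ± 0.024 for AAV control, so KA #3 stood apart there. Their levels were far apart, with mean FPKM over all libraries of 618 for Sst, 524 for Npy and 52.6 for Pvalb, the next. Of the 6 tested between KA and AAV control IP, 4 were called higher and 1 lower. Their log2 fold changes ran from -3.36 to 4.17. The 6 oligodendrocyte markers, which belong to no neuron, took more of the KA IP counts, 0.837% to 1.49% against 0.148% to 0.653% in AAV control IP, and their ratio was 2.18 ± 0.40 in the KA group against 0.607 ± 0.416, where AAV control #3 stood apart at 1.08. All 6 were above 1 FPKM in every library. The 7 microglia markers were low in IP, at 0.00431% to 0.00736% of KA counts and 0.00212% to 0.00413% of AAV control counts, and their ratio was 0.0445 ± 0.0015 against 0.172 ± 0.013. Endothelial markers (6 genes) took at most 0.00429% and choroid plexus markers (5 genes) at most 0.00862% of the counts of any IP library. No marker of these lists was at 0 in all libraries of a group. In the PBS group the ratios were 0.374 ± 0.110 for dentate granule cell, 0.219 ± 0.063 for CA pyramidal cell and 0.221 ± 0.094 for interneuron markers. They were 0.631 ± 0.310 for oligodendrocyte and 0.220 ± 0.038 for microglia markers. The part of these cell types in the release gene values was not tested.

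Most release genes were depleted from the astrocyte pull-down, the SNARE Snap25 by 9.54-fold in the AAV control group, while Unc13c was not distinguished from its input level and Syngr1 was depleted by 1.38-fold. In that group, edgeR's quasi-likelihood test called 26 of the 31 members tested lower in IP than in input, against 13.1% of all 9961 genes tested, where a call needs an adjusted p under 0.05 and a log2 fold change of at least 1 in size. None was called higher (13.3% of genes). Their median log2 fold change was -2.30, against 0.01 over all genes, and 30 of the 31 were below input in every pair, against 45.7% of genes. The test needed FPKM above 1 in all compared libraries, which left out Syt2, Sv2c, Slc17a6 and Doc2a. In the PBS group 25 of 31 were called lower (12.3% of genes) and 0 higher (14.8%), with a median of -2.07, and 30 were below input in every pair (41.4% of genes). With KA, 14 of 31 were called lower (4.51% of genes) and 0 higher (8.11%), with a median of -0.96. All pairs of 29 members were still below input (51.8% of genes), and the 31 tested there included Sv2c but not Vamp1.

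The strongest depletion was seen for the plasma membrane SNARE Snap25. Its FPKM was 33.0, 39.8 and 52.9 in AAV control IP against 405, 414 and 523 in input, a log2 fold change of -3.25 ± 0.32 (SE, edgeR adjusted p = 0.000255). Rab3a, the GTPase that rides on vesicles, followed with -3.15 ± 0.40, the synuclein Sncb with -3.09 ± 0.23 and synaptophysin (Syp), the most common marker of vesicle membrane, with -2.93 ± 0.23. For each of these 4 genes the IP samples were far below all inputs. The genes of SNAREs and their disassembly were called lower throughout in the AAV control group, 6 of 6 members, as were synapsins (2 of 2), complexins (2 of 2) and the endocytosis genes Dnm1, Sh3gl2 and Amph (3 of 3).

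Of the 6 active zone genes, 2 were called lower in AAV control IP, Unc13a (-1.20 ± 0.17) and Rims1 (-1.53 ± 0.21), and the median of the 6 was -0.86. Bsn, which encodes Bassoon, had 4.38, 3.86 and 5.01 FPKM in IP against 7.23, 7.75 and 11.2 in input, and Pclo, which encodes Piccolo, 3.58, 3.77 and 2.41 against 6.52, 8.04 and 5.47. The IP samples of both were below the inputs, by log2 fold changes of -0.84 ± 0.26 and -0.89 ± 0.20 that passed on p (0.0399 and 0.00924) but not on size. Unc13c, a Munc13 isoform, had 1.56, 2.59 and 1.06 FPKM in IP and 2.35, 2.45 and 1.45 in input, and these ranges overlapped (log2 fold change -0.12 ± 0.31, adjusted p = 0.795). Syngr1, a vesicle membrane protein with a broader tissue range than synaptophysin, had 17.4, 16.6 and 15.03 against 25.2, 24.5 and 25.3 FPKM, all IP samples lower (-0.47 ± 0.14, adjusted p = 0.0350).

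**Figure D2:**
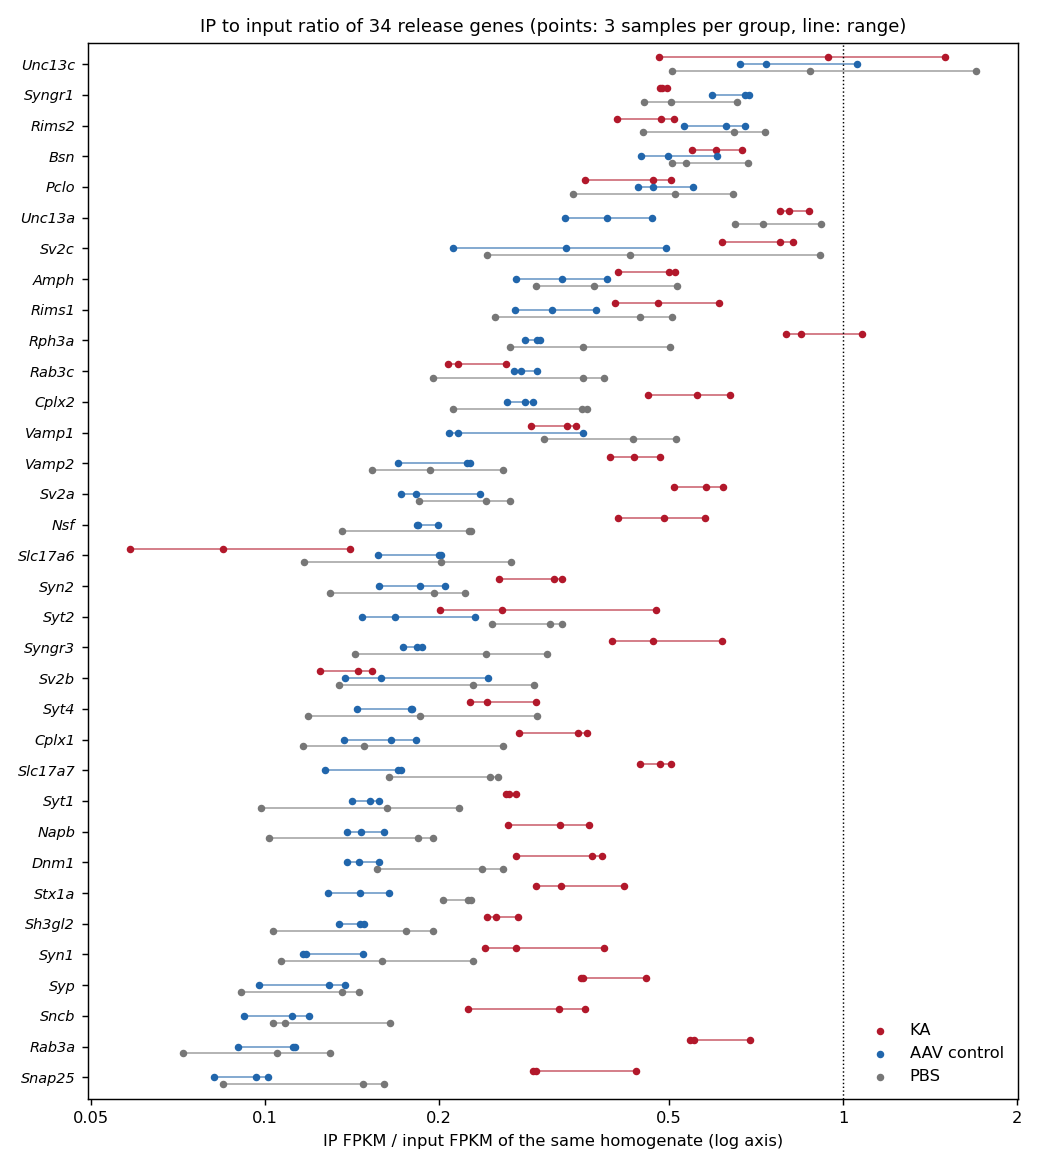
IP FPKM divided by input FPKM of the same homogenate (x axis, log scale) for 34 members, ordered by their mean in the AAV control group. Points are the 3 pairs of each group and lines their range, and Doc2a is left out because 1 pair had a ratio of 0. The KA points of Rab3a (0.54 to 0.69) are far to the right of its AAV control and PBS points (0.07 to 0.13), while those of Pclo, Bsn and Sv2b overlap.

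As a ratio of FPKM within each pair, the median member stood at 0.360, 0.367 and 0.439 in KA #1 to #3. It stood at 0.185, 0.187 and 0.183 in the AAV control pairs and at 0.259, 0.164 and 0.267 in the PBS pairs. The KA pairs were above all others, while 9001 genes with FPKM above 1 in all libraries had medians between 0.793 and 0.965 in every group. Among the 30 members with FPKM above 1 in all 18 libraries, the ratio was below 1 in every pair for 28 with KA, 29 for AAV control and 29 for PBS, against 53.7%, 46.6% and 44.0% of those genes. For 24 of 35 members every KA pair was above every AAV control pair, and for 19 of 35 every KA pair was above every PBS pair. Among the 30 expressed members these were 23 and 19, against 21.5% and 21.2% of the 9001 genes. For 4 of 35 members every KA pair was below every AAV control pair. They were Rims2, Rab3c, Syngr1 and Slc17a6, and 3 of them are among the 30 expressed members (27.2% of the 9001 genes).

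Rab3a had the widest shift as a fold between group means, 5.68-fold from AAV control to KA. Its ratio was 0.105 ± 0.013 (SD, n = 3 pairs) for AAV control and 0.102 ± 0.029 for PBS, but 0.595 ± 0.083 with KA. From AAV control to KA, Rph3a, which encodes the Rab3 effector rabphilin, went from 0.292 ± 0.0094 to 0.907 ± 0.15, so that IP and input were at about the same FPKM in the KA group. Syp went from 0.121 ± 0.021 to 0.388 ± 0.059 and Snap25 from 0.0930 ± 0.0102 to 0.341 ± 0.084. The vesicle glutamate transporter Slc17a7 (VGLUT1) went from 0.156 ± 0.026 to 0.478 ± 0.030. Its relative Slc17a6 (VGLUT2), the transporter of many subcortical neurons, had ratios of 0.0585, 0.140 and 0.0846 in the KA group against 0.202, 0.1997 and 0.157 in the AAV control group, where every pair was higher. Slc17a6 rested on 16 to 54 counts per IP library, so counting error is large in its ratios.

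Within the IP samples, 10 of the 30 members tested were called higher in the KA group than in the AAV control group and 0 were called lower. Over all 9729 genes tested, 6.39% were called higher and 5.22% lower. The median log2 fold change of the members was 0.72, against -0.02 for all genes, and 16 members had an adjusted p under 0.05 whatever the size of the change (20.1% of genes). In 19 of 30 members every KA IP sample was above every AAV control IP sample (16.8% of genes), and in 2 every one was below (20.2% of genes). The 5 members not tested were Syt2, Vamp1, Sv2c, Slc17a6 and Doc2a.

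**Figure D3:**
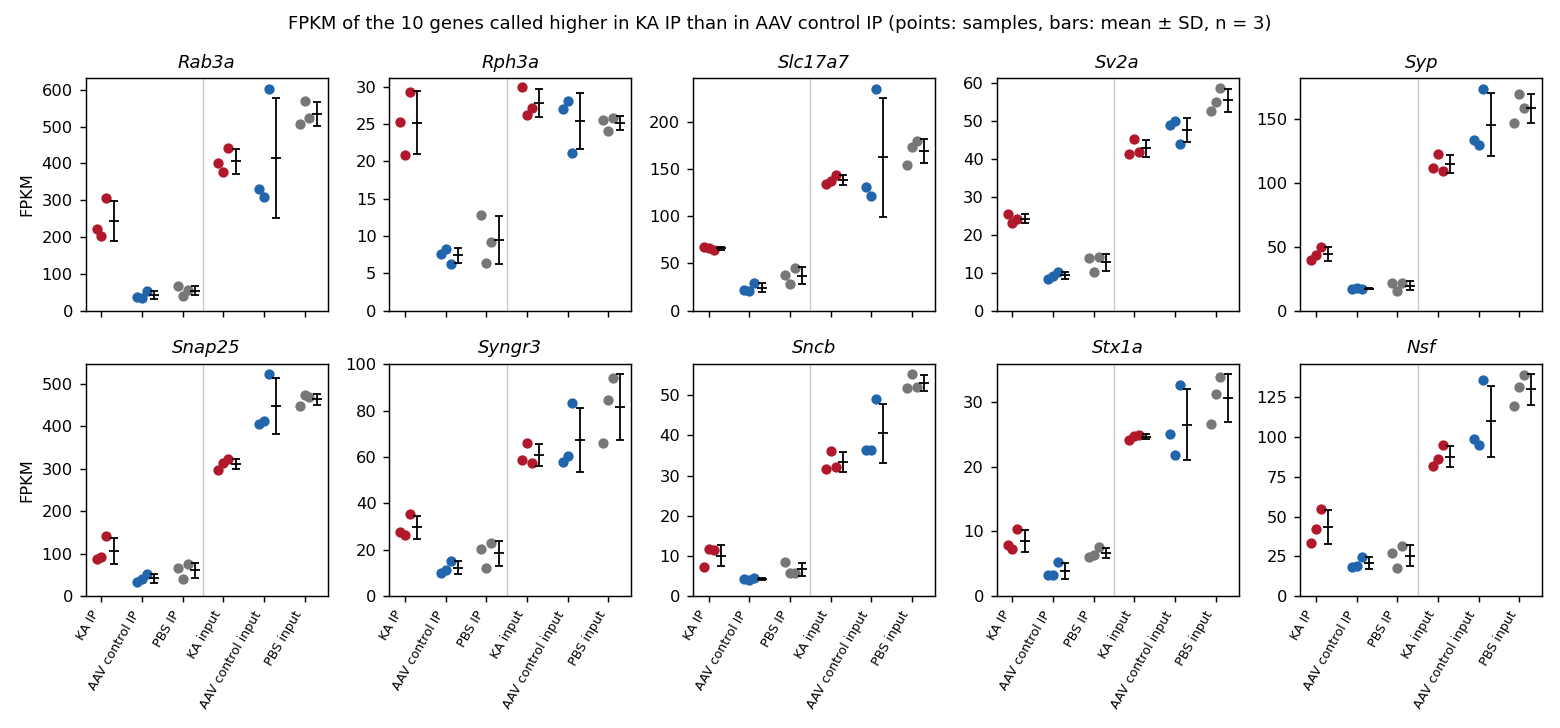
FPKM (y axis, from 0) of the 10 members called higher in KA IP than in AAV control IP, by group, with IP on the left and input on the right of each panel. Points are samples and bars the mean ± SD (n = 3). In the IP samples the KA points are above all AAV control points, and in input KA is below AAV control for Syp, Snap25, Sncb and Nsf and overlaps it for the other 6.

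Rab3a showed the largest rise. Its FPKM was 221, 204 and 306 in KA IP against 37.1, 34.95 and 54.1 in AAV control IP and 65.9, 41.0 and 55.0 in PBS IP. The lowest KA sample was at 204, and the highest of the other groups at 65.9. The log2 fold change was 2.59 ± 0.32 (SE) against AAV control (edgeR adjusted p = 0.00205) and 2.21 ± 0.27 against PBS (adjusted p = 0.000295). Rab3a input had 401, 376 and 443 FPKM with KA, 332, 310 and 603 for AAV control and 508, 569 and 525 for PBS. There the KA samples lay within the AAV control range (-0.05 ± 0.31, adjusted p = 0.960) and below all PBS samples. Rab3a was the member with the highest mean FPKM in KA IP, and its samples did not overlap those of the next, Vamp2.

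Rph3a, whose product binds Rab3a on vesicles, had 25.3, 20.9 and 29.3 FPKM in KA IP against 7.60, 8.30 and 6.31 in AAV control IP and 12.8, 6.40 and 9.14 in PBS IP. The groups did not overlap (1.84 ± 0.21, adjusted p = 0.00144, against AAV control; 1.44 ± 0.25, adjusted p = 0.00188, against PBS). Rab3c, the other Rab3 GTPase of the list, was not called and had 5.43, 6.76 and 3.94 FPKM in KA IP, 9.84, 9.84 and 6.39 in AAV control IP and 10.4, 5.73 and 11.6 in PBS IP. Its log2 fold change was -0.64 ± 0.21 against AAV control, which missed the threshold (adjusted p = 0.0677), and -0.76 ± 0.23 against PBS (adjusted p = 0.0251), too small for a call.

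Among vesicle membrane proteins, 3 of the 5 tested rose against AAV control. Sv2a, the target of the antiepileptic drug levetiracetam, had 25.6, 23.1 and 24.2 FPKM in KA IP against 8.42, 9.11 and 10.3, with no overlap (1.44 ± 0.18, adjusted p = 0.00237). Its paralog Sv2b had 2.33, 2.71 and 1.96 against 2.91, 3.44 and 3.59, all KA samples lower (-0.47 ± 0.19, adjusted p = 0.121). The third paralog Sv2c, too low to be tested, had 1.24, 1.36 and 1.92 against 0.523, 0.539 and 0.346. Of the 3 paralogs, Sv2a alone was called. Syp had 39.6, 43.2 and 49.9 FPKM in KA IP, 17.2, 17.9 and 16.9 in AAV control IP and 21.3, 15.4 and 21.6 in PBS IP, and was called against both (1.42 ± 0.20, adjusted p = 0.00298; 1.21 ± 0.20, adjusted p = 0.00154). Syngr3, a neuronal synaptogyrin, rose by 1.34 ± 0.27 (adjusted p = 0.0132), with 27.5, 26.3 and 35.5 FPKM in KA IP, 10.05, 11.3 and 15.3 in AAV control IP and 20.3, 12.1 and 22.7 in PBS IP. Its KA samples were above all others.

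Of the 5 genes of SNAREs and their disassembly that were tested, Snap25 (1.41 ± 0.33, adjusted p = 0.0227), syntaxin 1A (Stx1a, 1.16 ± 0.32, adjusted p = 0.0384) and Nsf (1.13 ± 0.29, adjusted p = 0.0316) were called higher. Snap25 had 86.8, 92.1 and 142 FPKM in KA IP and 33.0, 39.8 and 52.9 in AAV control IP, without overlap. Nsf had 33.2, 42.4 and 54.7 against 18.2, 19.0 and 24.9, and Stx1a 7.85, 7.27 and 10.4 against 3.24, 3.18 and 5.33. In both the groups were apart, and AAV control IP #3 was the highest of its group. Vamp2, the vesicle SNARE, and Napb, the neuronal SNAP adaptor of Nsf, passed on p (0.0112 and 0.0181) with log2 fold changes just short of 1 (0.98 ± 0.19 and 0.99 ± 0.22). Vamp2 had 141, 145 and 159 FPKM in KA IP against 81.5, 82.9 and 71.7 in AAV control IP and 93.0, 67.3 and 79.6 in PBS IP, again without overlap. Vamp1, the SNARE of many inhibitory and motor neurons, had 1.46, 0.954 and 1.44 in KA IP against 1.34, 1.22 and 2.19 and was not tested.

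Slc17a7 had 67.8, 66.2 and 64.2 FPKM in KA IP against 22.3, 20.8 and 29.8 in AAV control IP and 37.9, 28.3 and 45.4 in PBS IP. The KA samples were tight and above all others (1.48 ± 0.23, adjusted p = 0.00475, against AAV control). Against PBS the difference of 0.85 ± 0.20 passed on p only (0.00797). Sncb, a synuclein of nerve terminals, rose by 1.29 ± 0.26 (adjusted p = 0.0135), with 7.12, 11.7 and 11.5 FPKM against 4.32, 4.05 and 4.51 in AAV control IP. Its KA range overlapped the PBS IP samples (8.53, 5.71 and 5.64). Neither synapsin was called: Syn1, which tethers vesicles to each other, had 0.98 ± 0.19 (adjusted p = 0.0116) and Syn2 had 0.56 ± 0.21 (adjusted p = 0.105). The complexins Cplx1 and Cplx2 had 0.75 ± 0.14 (adjusted p = 0.0106) and 0.60 ± 0.22 (adjusted p = 0.0961). Cplx2 was at rank 4 by mean FPKM in KA IP, after Rab3a, Vamp2 and Snap25, with 77.7, 116 and 109 against 71.6, 74.8 and 62.8 in AAV control IP. The samples of Vamp2 and Snap25, and those of Snap25 and Cplx2, overlapped in KA IP.

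None of the 6 active zone genes was called. Unc13a, the main Munc13 of excitatory synapses, came closest, with 4.72, 4.66 and 3.90 FPKM in KA IP against 2.72, 2.29 and 2.37 (0.90 ± 0.15, adjusted p = 0.00660). Rims2 had 3.04, 3.20 and 2.43 against 4.13, 5.50 and 3.93, every KA sample lower (-0.59 ± 0.17, adjusted p = 0.0427). Pclo (-0.34 ± 0.21), Bsn (0.16 ± 0.27), Rims1 (0.41 ± 0.21) and Unc13c (0.34 ± 0.42) had adjusted p between 0.208 and 0.715. The endocytosis genes Dnm1, the dynamin of nerve terminals, Sh3gl2, an endophilin, and Amph, amphiphysin, had 0.68, 0.51 and 0.22, with adjusted p of 0.116, 0.0969 and 0.616. The calcium sensors Syt1 (0.38 ± 0.20) and Syt4 (0.19 ± 0.23) did not pass. Syt1, the fast calcium sensor of release, had 21.5, 24.5 and 28.3 FPKM in KA IP against 20.5, 22.2 and 17.5 in AAV control IP, and the ranges overlapped. Syt2 and Doc2a, a soluble calcium sensor, were too low, with 18 to 49 and 0 to 16 counts per IP library.

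The 10 calls depended on single libraries to differing degrees. Rab3a, Rph3a, Slc17a7, Sv2a and Syp were called in all fits that left out 1 library, whereas 5 calls remained without AAV control #1 and 5 without AAV control #2, where Snap25, Stx1a, Nsf, Syngr3 and Sncb had adjusted p between 0.0533 and 0.127. Without KA #1, #2 or #3 there were 12, 7 and 7 calls. With run 1 alone, that is #1 and #2 of each group, 10 members were called.

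Against PBS, 3 of 30 members were called higher in KA IP (8.08% of genes) and 0 lower (9.34%), namely Rab3a, Rph3a and Syp. The median was 0.34, and 15 of the 30 members had an adjusted p under 0.05, against 3647 of all 9847 genes tested. Of the 10 members called against AAV control, 8 were among these 15, while Stx1a (0.37 ± 0.22) and Sncb (0.61 ± 0.27) were not. The 10 were picked with the same KA IP libraries, so the 8 are no separate support. The count of 3 rose to 6 without KA #1 and without PBS #1, and to 5 without KA #2 (1 of them lower) or PBS #2 (2 of them lower, Sv2b and Bsn). In 11 of 30 members every KA IP sample was above every PBS IP sample (22.7% of genes) and in 3 every one was below (23.3% of genes). The active zone genes Bsn (-0.95 ± 0.25, adjusted p = 0.0126) and Rims2 (-0.69 ± 0.19, adjusted p = 0.0156) and the vesicle protein Sv2b (-0.96 ± 0.24, adjusted p = 0.00991) were below PBS without reaching the size for a call.

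Between PBS and AAV control IP, edgeR called 0 of 31 members (0% of 10667 genes). An unadjusted p under 0.05 was found for 9 members, against 1153 of the 10667 genes. The median of the 31 was 0.37, against 0.03 for all genes, and 29 were above 0 (5592 of the 10667 genes). In 4 of 31 every PBS IP sample was above every AAV control IP sample (4.89% of genes) and in 0 below (8.53%). DESeq2 called 1, Bsn, limma-voom called 0, and edgeR called 3 without AAV control #3 (Stx1a, Vamp1 and Bsn), a fit that called 546 of all 10951 genes. Bsn had 8.90, 7.20 and 12.1 FPKM in PBS IP against 4.38, 3.86 and 5.01 in AAV control IP, and 17.6, 13.5 and 17.7 against 7.23, 7.75 and 11.2 in input. Its PBS libraries were above those of AAV control in both kinds of RNA, and all PBS libraries came from run 3.

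In input, 0 of 33 members were called between the KA and AAV control groups, against 2.52% of genes called higher and 0.185% lower. An unadjusted p under 0.05 was found for 5 members, against 1939 of all 10809 genes. limma-voom and DESeq2 also called 0. The median log2 fold change was -0.26, and in 12 of 33 members every KA input was below every AAV control input (10.4% of genes), and in 1 above (12.2%). Syngr1 was the 1 member with an adjusted p under 0.05 (4.49% of genes), and it was higher in the KA group, with 51.2, 43.2 and 37.8 FPKM in KA input against 25.2, 24.5 and 25.3 in AAV control input (0.81 ± 0.14, adjusted p = 0.0200). It was also higher than in PBS input, at 25.1, 25.9 and 28.2 (0.72 ± 0.11, adjusted p = 0.000859). Its paralog Syngr3 had 58.8, 66.1 and 57.4 against 58.0, 60.5 and 83.3, with overlap.

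Against PBS input, 23 of 33 members had an adjusted p under 0.05 (27.7% of genes). Their median over the 33 was -0.40, and in 23 every KA input was below every PBS input (17.5% of genes). A single member, Bsn, was large enough to be called lower (1.09% of genes), at -1.06 ± 0.19 (adjusted p = 0.00268). That call was lost without KA #1, KA #2 or PBS #1. The next were Sh3gl2 (-0.78 ± 0.14), Syt1 (-0.74 ± 0.16) and Sncb (-0.68 ± 0.10). Between PBS and AAV control input, edgeR called 0 of 34 members (0% of 10924 genes), while DESeq2 and limma-voom called 0 as well. An unadjusted p under 0.05 was found for 3 members, against 901 of the 10924 genes. Without AAV control #3, Bsn was called, as were 365 of all 11164 genes. In 6 of 34 every PBS input was above every AAV control input (5.01% of genes) and in 0 below (5.89%).

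**Figure D4:**
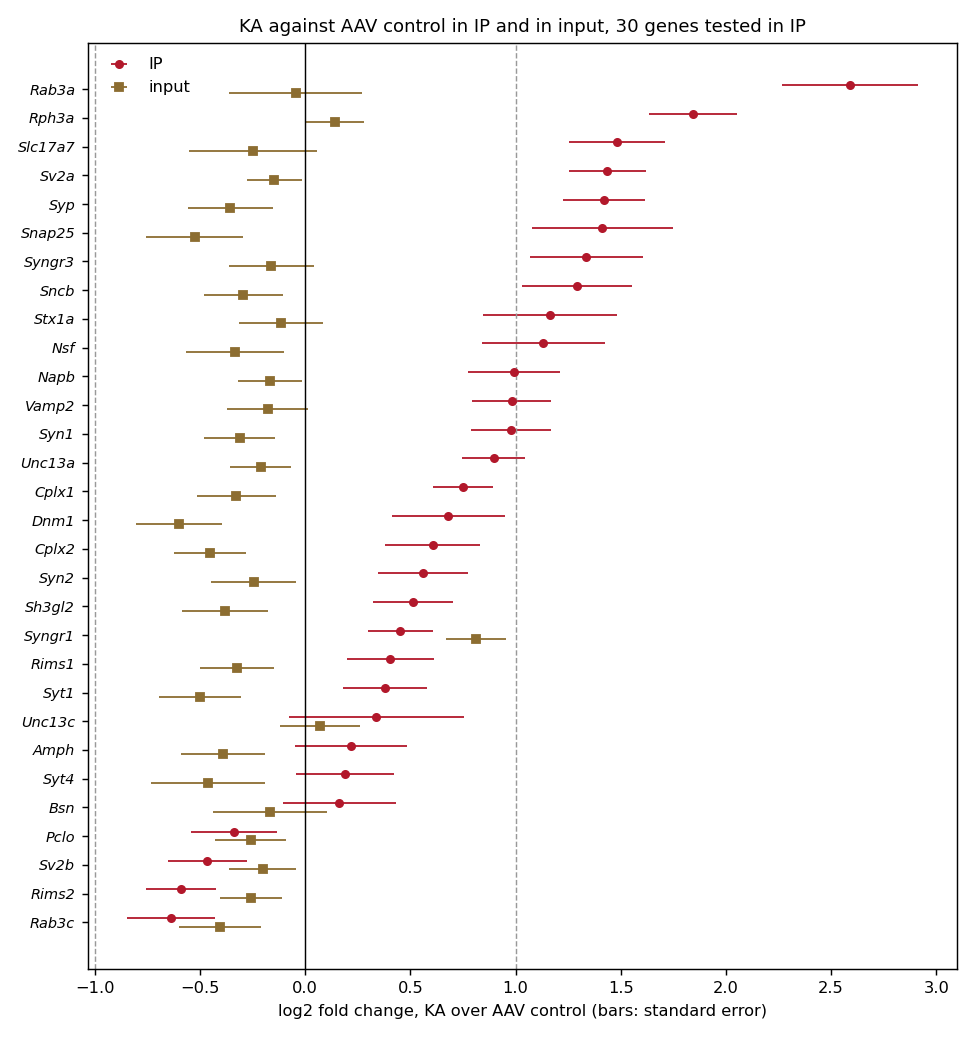
Log2 fold change of KA over AAV control (x axis) in IP (circles) and in input (squares) for the 30 members tested in IP, with standard errors as bars and dashed lines at -1 and 1. All IP values except those of Pclo, Sv2b, Rims2 and Rab3c are above 0, and in input only Syngr1 (0.81), Rph3a (0.14) and Unc13c (0.07) are above 0.

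Whether the KA effect differed between the pull-down and whole tissue was tested directly as an interaction over 12 libraries. With AAV control as the baseline, 16 of 30 members had a higher KA effect in IP than in input (5.10% of genes) and 0 a lower one (4.32%), with a median difference of 1.11 on the log2 scale against -0.02 for all genes. Rab3a had the largest difference (2.65 ± 0.48, adjusted p = 0.00371), followed by Snap25 (1.95 ± 0.42, adjusted p = 0.00946), Syp (1.79 ± 0.27, adjusted p = 0.00138) and Slc17a7 (1.74 ± 0.40, adjusted p = 0.0134). Rph3a (1.72 ± 0.24) and Sv2a (1.60 ± 0.21) had the smallest adjusted p, 0.000977 and 0.000688. Stx1a was on the threshold, at 1.29 ± 0.39 with an adjusted p of 0.0502 and of 0.000281 with same-numbered samples as a replicate block. The count fell to 9 without KA #2, AAV control #1 or AAV control #2. Vamp2, Syp, Sv2a, Rab3a and Rph3a were called in all fits that left out 1 sample, that is, both its IP and its input library. With PBS as the baseline, 11 of 30 were called higher (4.98% of genes) and 0 lower (8.88%), with a median of 0.77 against -0.07. Rab3a again had the largest value, 2.60 ± 0.32 (adjusted p = 0.000184). These comparisons share the KA libraries.

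Pclo, Bsn, Rims2, Unc13c, Rab3c, Sv2b and Syngr1 had interaction values between -0.35 and 0.35 against AAV control, with adjusted p of 0.268 or more. Most are long genes. The length behind the FPKM values ran from 2070 bases for Syngr3 to 22442 for Pclo, with a median of 5395. Across the 31 members tested, the depletion from AAV control IP was weaker for longer genes (Pearson r = 0.56, Spearman rho = 0.49 between log2 length and the log2 fold change of IP over input), and across 30 members the KA effect in IP was smaller for longer genes (r = -0.62, rho = -0.59). In KA IP against input the relation was weak (r = 0.11, rho = 0.11, 31 members). These are correlations across genes of the same libraries, which are not independent replicates. Across all genes with a length the same relations had r = -0.05 and rho = -0.07 (9960 genes) and r = -0.06 and rho = -0.13 (9728 genes). Of the 16 tested members up to the median length, 8 were called higher in KA IP, against 7.65% of genes up to that length, and of the 14 longer ones 2 were, against 4.03%.

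**Figure D5:**
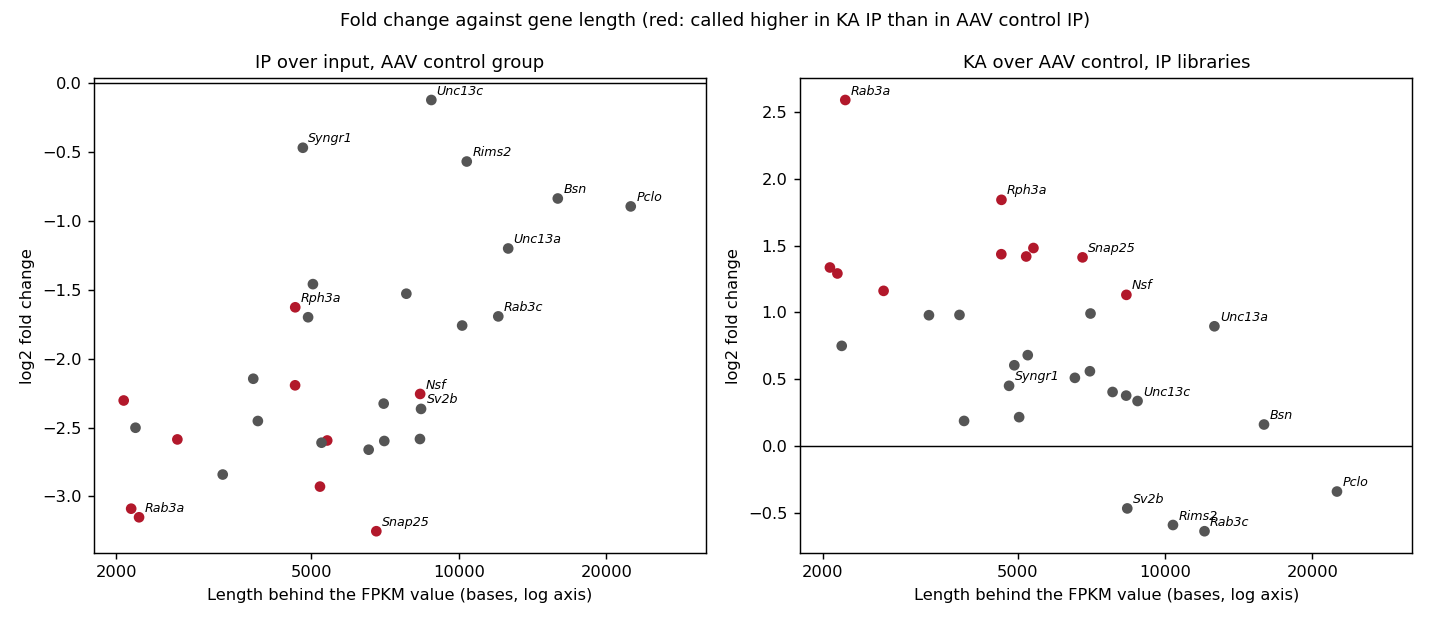
Log2 fold change (y axis) against the length behind the FPKM value (x axis, bases, log scale), on the left for IP over input in the AAV control group and on the right for KA over AAV control in IP. Red points are the 10 members called higher in KA IP. Rab3a, at 2225 bases, is among the most depleted on the left and the highest on the right, while Pclo, at 22442 bases, is among the least depleted on the left and below 0 on the right.

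The other genes of the release pathway were read from a list of 70, of which 68 were in the tables. In KA against AAV control IP, 9 of the 50 tested were called higher (6.39% of all genes tested) and 0 lower (5.22%). Their median was 0.38, against -0.02 for all genes. Among those called were Syt5 (2.31 ± 0.36, adjusted p = 0.00480), a dense core vesicle synaptotagmin, and Synpr (2.25 ± 0.27, adjusted p = 0.00171), a synaptophysin relative prominent in granule cell mossy fibers. Synpr had 5.52, 5.49 and 8.48 FPKM in KA IP against 1.54, 1.35 and 1.43 in AAV control IP, whereas its input samples ran from 8.43 to 8.98 with KA and from 8.59 to 10.04 for AAV control. The summed list stood at 0.632 ± 0.031 of its input share with KA and at 0.425 ± 0.026 for AAV control.

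The broadly expressed relatives named here were not called between KA and AAV control IP. Vamp3 and Snap23, which serve exocytosis in many cells including astrocytes, had log2 fold changes of -0.04 ± 0.15 and -0.08 ± 0.23 between KA and AAV control IP (adjusted p = 0.896 and 0.844). Vamp3 had 24.5, 21.1 and 17.6 FPKM in KA IP and 22.2, 22.4 and 22.2 in AAV control IP. In AAV control samples it was at 0.99 ± 0.14 on the log2 scale above input (adjusted p = 0.00133), just short of a call. Dnm2 (-0.39 ± 0.19), Sh3gl1 (-0.37 ± 0.33), Sypl (0.41 ± 0.25) and Syt11 (0.13 ± 0.18) were not called in that comparison either. Napa, the widely expressed partner of Nsf, had 1.03 ± 0.37 with an adjusted p of 0.0869, and Syngr2 0.75 ± 0.40 with 0.224. Some were called elsewhere. Syngr2 was higher in KA than in PBS input (1.22 ± 0.15, adjusted p = 0.000240). In the PBS group Snap23 was higher in IP than in input (1.11 ± 0.22, adjusted p = 0.00112) and Napa lower (-1.27 ± 0.17, adjusted p = 5.44e-05). In the interaction with the PBS baseline Napa was called higher (1.25 ± 0.27, adjusted p = 0.00501) and Dnm2 lower, just past the size threshold (-1.0002 ± 0.22, adjusted p = 0.00563).

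The library kit did not mark strand, so reads from bases that overlapping genes share cannot be told apart. Of the 35 members, 26 overlap another gene in GENCODE, 10 share exonic bases with one, and 3 share over 10% of them: Syt4 (14.5%, with Gm26658), Syp (16.8%, with Gm14703) and Doc2a (39.4%, with Ino80e). How many reads came from the shared bases was not measured, so these 3 values are uncertain. Syn1 has Timp1 inside it, with 0 exonic bases shared.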

How the data were processed

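Counts and FPKM values were used as the authors deposited them, per gene symbol for each of the 18 libraries. Per the labels and the study's methods, NEBNext Ultra II libraries without strand marking were sequenced on an Illumina NovaSeq and aligned with STAR to mm10. The submitters' processing notes also name featureCounts and edgeR, and the annotation release and strand setting are not given in the sources used here. The deposited FPKM values equal the deposited counts divided by the library total and a fixed gene length, within 1% for 99.8% of 16124 genes with at least 20 counts, and that length is the one used here. No pair of replicate libraries of a group agreed within sampling noise (chi-square per degree of freedom of at least 4.48). In the KA and AAV control groups this value was 4.48 to 9.59 for #1 against #2, which shared a run. It was 39.6 to 109 for pairs with #3, from the other run. PBS pairs, all of 1 run, had 7.22 to 81.2.

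Counts were tested with edgeR 4.0.16 in R 4.3.3 (quasi-likelihood, TMM normalization), on genes with FPKM above 1 in all compared libraries, with Benjamini-Hochberg adjustment over all genes tested. A gene was called at an adjusted p under 0.05 with a log2 fold change of at least 1 in size. The SE is the size of the log2 fold change divided by the square root of F. The fits were tested on simulated counts. DESeq2 1.42.0, limma-voom (limma 3.58.1), other size factors, no FPKM filter, a replicate block, the sequencing run and leaving out each sample were tried as alternatives. A sample left out lost both its IP and its input library where a fit held both. IP and input of a number come from 1 homogenate and are paired, but the main tests had no term for this pairing. It entered those fits only in the replicate block among the alternatives. KA and AAV control samples of a number deviated together from their group means (r from 0.348 to 0.551 across genes) and shared sequencing runs, whereas PBS samples were in another run.

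All 35 members are named. Of the other release genes, the rule named the 3 with the largest change among those called, of which 1 is not reported here, and 8 broadly expressed relatives. The members and all gene lists were chosen with earlier results of these data known. Gene positions came from GENCODE M21 and upstream sequences from RefSeq on GRCm38.p6. Totals of 7991681 to 16032180 counts per library limit the precision of low genes.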

Additional observations from a re-analysis of the deposited data

Results flagged for a closer look

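The members below stood out because the effect of KA differed between IP and input in a direct test of that difference (edgeR interaction, Benjamini-Hochberg adjusted p under 0.05 and at least 1 on the log2 scale). Against the AAV control baseline the differences, IP minus input, were 2.65 for Rab3a, 1.95 for Snap25, 1.79 for Syp, 1.74 for Slc17a7, 1.72 for Rph3a, 1.60 for Sv2a and 1.60 for Sncb. They were 1.51 for Syngr3, 1.48 for Nsf, 1.31 for Syn1, 1.30 for Dnm1, 1.18 for Vamp2 and 1.18 for Napb. The smallest were 1.13 for Unc13a, 1.09 for Cplx1 and 1.08 for Cplx2.

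Against the PBS baseline, which shares the KA libraries, the differences were 2.60 for Rab3a, 1.68 for Syp, 1.45 for Snap25, 1.38 for Nsf, 1.32 for Sv2a, 1.30 for Rph3a and 1.28 for Sncb. They were 1.16 for Syngr3, 1.15 for Vamp2, 1.14 for Slc17a7 and 1.03 for Napb. Unc13a, at 1.13 against AAV control, had 0.11 here (adjusted p = 0.711), and its PBS IP samples had 3.29, 3.72 and 5.12 FPKM against 2.72, 2.29 and 2.37 in AAV control IP. The PBS samples were all from run 3.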

How the results depend on the processing

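Of the values of single members recomputed under the alternatives, 3575 stayed on the same side of the threshold for a call, 54 newly passed it, 62 no longer passed it and 0 reversed. Without the FPKM filter the number of members called moved from 3 to 10 for KA against PBS IP, where the median of all genes moved by 0.20 on the log2 scale, and from 11 to 17 for the interaction with the PBS baseline, where it moved by 0.27. The share of all genes called without the filter is not given here, so these rises cannot be read as particular to the members. DESeq2 called 1 member between PBS and AAV control IP. Without the 10 most counted genes of each library the share of counts in the members was 0.617% in KA IP, 0.338% in AAV control IP, 0.435% in PBS IP, 1.41% in KA input, 1.81% in AAV control input and 1.98% in PBS input. The median IP to input ratio was 0.451 (KA) and 0.209 (AAV control) with TMM-scaled CPM, and in the AAV control group 0.190 with 0.1 added to FPKM and 0.179 over expressed members alone. Leaving out 1 library gave 5 to 12 members called for KA against AAV control IP, 3 to 6 for KA against PBS IP and 0 to 3 for PBS against AAV control IP. For the same contrasts in input it gave 0 to 0, 0 to 1 and 0 to 1. Leaving out both libraries of 1 sample gave 26 to 26, 25 to 26 and 14 to 16 for IP against input in the AAV control, PBS and KA groups. The interaction gave 9 to 16 with the AAV control baseline and 9 to 13 with the PBS baseline. The shares ranged from 0.467% to 0.526% in KA IP, 0.263% to 0.270% in AAV control IP, 0.307% to 0.386% in PBS IP, 1.19% to 1.23% in KA input, 1.43% to 1.54% in AAV control input and 1.62% to 1.70% in PBS input, and the median ratios from 0.364 to 0.403 (KA), 0.184 to 0.186 (AAV control) and 0.211 to 0.263 (PBS). With same-numbered samples as a replicate block, 10 members were called for KA against AAV control IP, 3 for KA against PBS IP, 17 for the interaction with the AAV control baseline and 11 with the PBS baseline, and the block moved no count by more than 1 member. The cause of these moves was not tested. Syt2, Slc17a6 and Doc2a had too few counts to pass the FPKM filter of the IP tests.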
